A study of Esox lucius with 13 samples.

Results

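Mitochondrial proteins were taken from the study's annotated supplementary tables of assembled transcripts and of gene models. A row was a member if its protein name is a subunit of the respiratory chain or of ATP synthase, an ADP/ATP translocase or a creatine kinase. Any name that ends in "mitochondrial" was taken in too, so that the members also hold proteins with functions other than energy supply. Rows whose name contains cytochrome P450 or side-chain cleavage were left out. Among the first 1999 rows of each table, 50 rows with 48 distinct names met this rule, 3 among the transcripts and 47 among the gene models. The expression values are those of 38696 assembled transcripts of northern pike, Esox lucius. A single untreated juvenile male caught in the wild gave all 13 libraries, 1 for each of heart, muscle, liver, spleen, kidney, head kidney, gut, stomach, gill, nose, eye, brain and testis. The table of gene models heads the stomach column as pyloric caecum. With 1 fish and no replicate libraries the tissues were compared without a test, and every interval below is a 95% interval of counting error only.

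Mitochondria make most of the ATP of a resting cell. Complexes I and II pass electrons from NADH and succinate to ubiquinone, complexes III and IV carry them on to oxygen, and ATP synthase uses the proton gradient that results. The ADP/ATP translocase exchanges the ATP made inside for ADP from the cytosol. Heart and red muscle are known for dense mitochondria, and in mammals some subunits of complex IV, 6A among them, have a copy used in heart and muscle and another used elsewhere.

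The deposited values carry transcript identifiers and no gene names, so that each name had to be paired with a transcript. The 3 rows from the transcripts had the same fragments and FPKM (fragments per kilobase of transcript, relative to the mapped fragments of the library) as exactly 1 transcript in all 13 libraries. Of the rows from the gene models, 8 had the fragments of 1 transcript within 1 fragment or 0.1% in all 13 libraries. For 5 more rows, only 1 transcript had a closely similar spread of fragments over the 13 tissues. They are ATP synthase subunit g, aspartate aminotransferase, isocitrate dehydrogenase subunit gamma 1, 28S ribosomal protein S28 and the ES1 protein homolog. This weaker step set no limit on length, and for ATP synthase subunit g, S28 and ES1 the transcript was much longer than the row. Together the steps give 16 members with deposited values, 13 of them with at least 1000 fragments. Another 5 rows were paired only under looser limits and are described apart, as provisional. The remaining 29 rows have no values here, 14 because they had fewer than 1000 fragments and 15 because no transcript stood out. Pairing favours abundant transcripts with a distinct pattern, so that the 13 are not an even sample of the 50. Names are the study's annotations, and reads of near-identical gene copies cannot be told apart in these counts.

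Brain had the smallest library, with 17240414 fragments, and liver the largest, with 22300517. The 10 most abundant transcripts took up 57.5% of the fragments in stomach, 45.6% in muscle and 41.7% in liver, but 3.95% in testis. FPKM is a share of each library, and in liver the median transcript was at -2.20 on the log2 scale relative to its median in the other 12 tissues, in muscle at -1.78, in stomach at -1.17 and in spleen at 0.84. Values are therefore also given after median-of-ratios scaling, which sets the median of the 14814 transcripts with fragments in all libraries to a common level and multiplies FPKM by 3.90 in liver, 2.98 in muscle, 2.03 in stomach, 1.04 in heart, 0.689 in testis and 0.512 in spleen. Upper-quartile scaling, which levels the upper quartile of the transcripts with fragments, multiplies by 2.34 in liver, 2.06 in muscle, 1.61 in stomach and 1.12 in heart. The order of tissues after scaling can thus depend on the method. Below, scaling means median-of-ratios scaling unless upper-quartile scaling is named. Of the tissue markers listed, 4 of 13 were paired with a transcript. Hemopexin, a heme-binding plasma protein, was highest in liver, SLC12A3, a salt transporter of the kidney tubule, in kidney, cyclin-B2, a mitotic cyclin, in testis and brain fatty acid-binding protein in brain, with 2181 FPKM there and 1524 in head kidney. The 3 markers of blood and the 3 of striated muscle were not paired, so that the share of red cells or muscle fibres in a library was not tested. Whole tissues were sequenced, and fewer cells of a type cannot be told apart from less RNA per cell.

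Set beside all 15182 transcripts with at least 1000 fragments, the mitochondrial members stood high in liver, muscle and heart and low in spleen, nose and head kidney. In muscle the median member was at -0.59 relative to the other tissues and the median of all transcripts at -1.78, a difference of 1.19 on the log2 scale, with 12 of the 13 members above the median of all transcripts. In liver the median member was at -0.83 and the median of all transcripts at -2.20, a difference of 1.37, with 11 of 13 above. In FPKM the median member was thus itself below its level in the other tissues in muscle and liver. In heart the difference was 0.80, with 12 of 13 above. Spleen went the other way by -1.35, with 0 of 13 members above the median transcript, followed by nose at -0.74 and head kidney at -0.62, with 2 of 13 above in each. A scaling factor applies to all transcripts of a library alike and so could change these differences little. After median-of-ratios scaling they were 1.39 in muscle, 1.57 in liver, 0.73 in heart, -1.54 in spleen, -0.85 in nose and -0.85 in head kidney. In testis the members and all transcripts had nearly the same median, with a difference of 0.03 in FPKM and 0.14 after scaling. The members were more abundant than most transcripts, with a median of 9157 fragments over all libraries against 4670. Against the 7240 transcripts with at least 5000 fragments the differences were 1.11 in muscle, 1.21 in liver, 0.85 in heart and -1.26 in spleen. Neither background was matched to the members by how many tissues a transcript was read in.

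**Figure D1:**
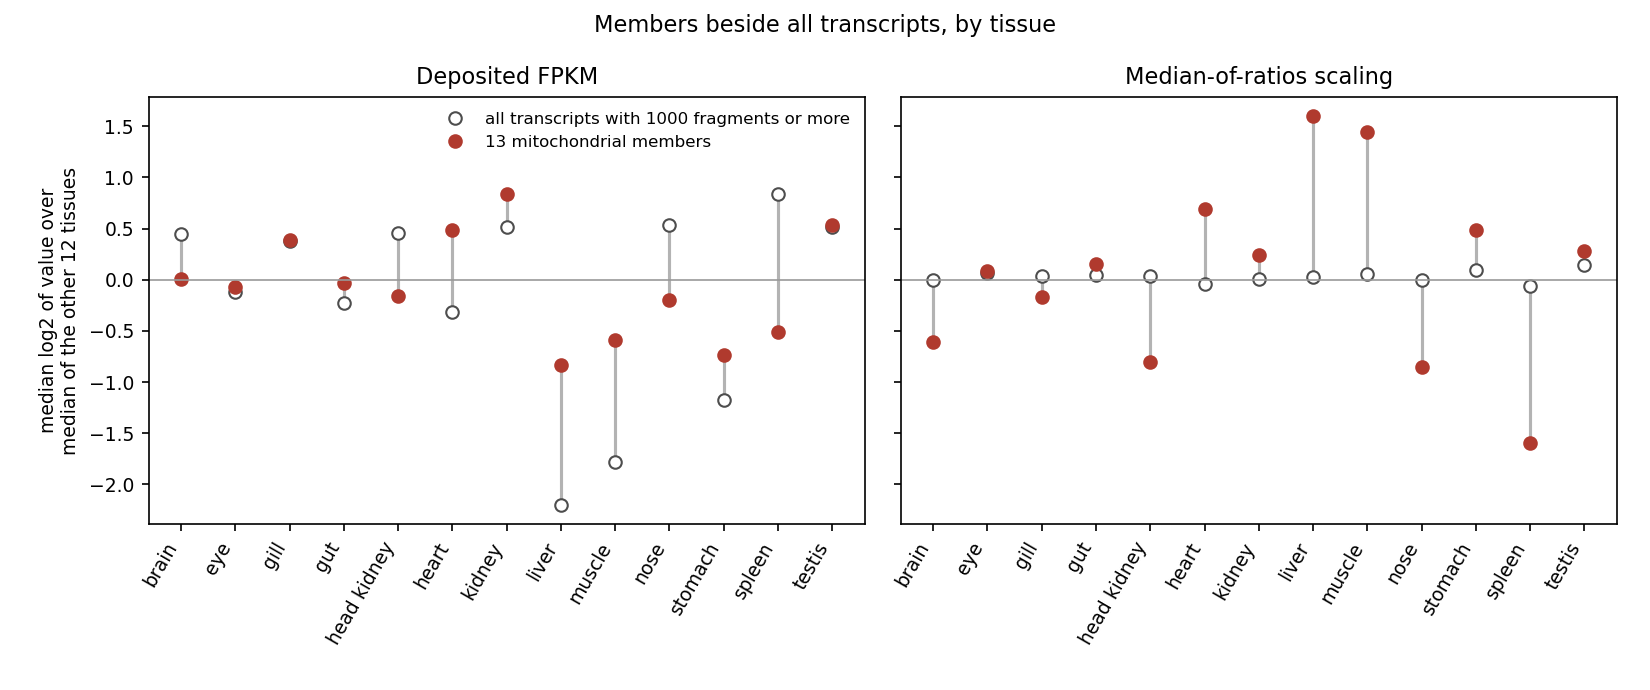
Median log2 of each tissue's value over the median of the other 12 tissues (vertical axis), for the 13 mitochondrial members with at least 1000 fragments (filled) and for all 15182 transcripts (open), by tissue (horizontal axis), in deposited FPKM (left) and after median-of-ratios scaling (right). The filled points lie above the open ones by 1.19 in muscle and 1.37 in liver and below by 1.35 in spleen (FPKM).

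Counted by FPKM at 2 times the median of the other tissues or more, 5 of the 13 members were raised in heart, where 16% of all transcripts were. In muscle 3 of 13 were raised beside 7.41% of all transcripts, and in testis 5 of 13 beside 41.1%. After median-of-ratios scaling 6 of 13 were raised in heart beside 18.7%, 8 of 13 in muscle beside 23.4% and 3 of 13 in testis beside 34.6%. At 0.5 times the median or less, 5 of 13 were lowered in liver beside 77.7% of all transcripts, 5 of 13 in muscle beside 72.5% and 6 of 13 in stomach beside 56.6%. Scaling removed most of these calls. After it 1 of 13 were lowered in liver beside 32.4% of all transcripts, 0 in muscle beside 24.6% and 1 in stomach beside 22.5%. Liver calls went the other way, with 8 of 13 raised after scaling beside 25.02% of all transcripts. In FPKM 0 of 13 were raised in liver, beside 6.106%. Spleen had 10 of 13 lowered after scaling beside 18.51% of all transcripts, and 4 of 13 in FPKM beside 9.959%. Heart held the highest FPKM of 3 members, where it did so for 4.25% of all transcripts, and testis that of 3 members, where it did so for 28.8%. After scaling heart was highest for 1 member, beside 5.31% of all transcripts. The tissue with the highest value was the same on both scales for 6 of the 13 members and another for 7. Endonuclease G, counted as raised and highest in testis, reached 1000 fragments only with those of testis, 631 of 1282. The limit on fragments took in the compared tissue itself, for the members and for all transcripts alike.

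**Figure D2:**
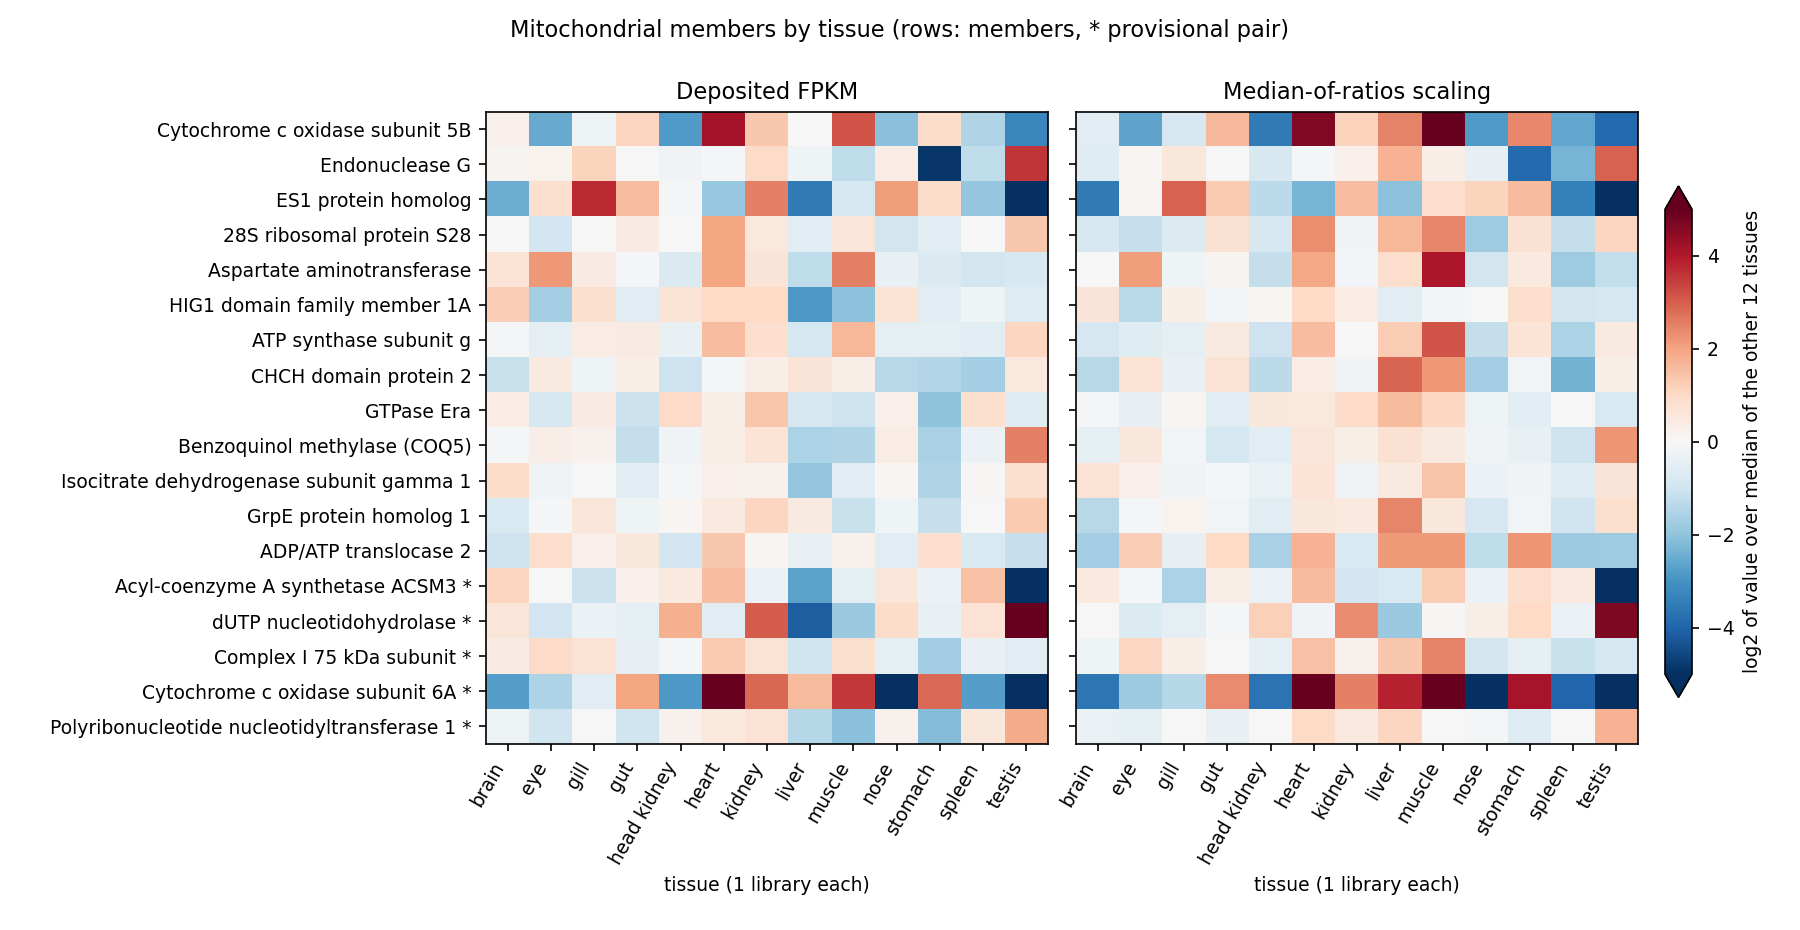
Log2 of each member's value over the median of the other 12 tissues (colour, limited to -5 and 5), with members in rows and tissues in columns, in deposited FPKM (left) and after median-of-ratios scaling (right). Heart is red in the row of cytochrome c oxidase subunit 5B in both panels, and liver, muscle and stomach turn from blue or pale to red in several rows after scaling.

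Cytochrome c oxidase subunit 5B, a nuclear-encoded subunit of complex IV, had high values in heart and muscle and a wide range. Its FPKM was 490.9 in heart, 244.7 in muscle, 69.6 in kidney, 58.9 in gut, 52.8 in stomach, 32.9 in brain, 29.2 in liver, 26.1 in gill, 10.8 in spleen, 7.24 in nose, 5.44 in eye, 4.31 in head kidney and 3.25 in testis. Heart and muscle stood well above the rest, and testis, head kidney and eye were lowest. Heart was 2.01 times muscle (1.94 to 2.08) and 151 times testis (120 to 193), where 74 fragments were counted. After median-of-ratios scaling the order of the first pair turned, with 730 in muscle and 509 in heart, and testis remained lowest at 2.24. Under upper-quartile scaling heart stayed above muscle. Kidney was 16.1 times head kidney (13.1 to 20.1), although both are parts of the kidney, and 15.5 times after scaling. The SD score in heart, which is the FPKM minus the mean of the 13 tissues over their SD, was 2.96.

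HIG1 domain family member 1A, known in mammals as a hypoxia-induced protein that binds complex IV, followed another order. Its FPKM was 63.4 in brain, 53.4 in kidney, 52.7 in heart, 46.1 in gill, 43.5 in nose, 42.8 in head kidney, 29.0 in spleen, 24.4 in stomach and 24.33 in gut, then 22.8 in testis, 11.2 in eye, 8.70 in muscle and 4.93 in liver. Brain was 1.19 times kidney (1.10 to 1.29) and 12.8 times liver (10.7 to 15.6). After scaling heart was highest at 54.6 and eye lowest at 11.1. Muscle, high for subunit 5B, was lowered for this member at 0.243 times the median of the other tissues in FPKM, and at 0.912 times after scaling.

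ATP synthase subunit g, a small subunit of the membrane part of the enzyme, varied less than subunit 5B between tissues, 4.87-fold in FPKM and 21.9-fold after scaling, against 151-fold and 326-fold. Its FPKM was 412 in muscle, 384 in heart, 276 in testis, 234 in kidney, 175 in gut, 171 in gill, 141 in brain, 121 in head kidney, 115 in nose, 111 in eye, 110.1 in stomach, 109.6 in spleen and 84.5 in liver. Muscle was 1.07 times heart (1.05 to 1.10) and 4.87 times liver (4.69 to 5.06), the lowest. Testis, the lowest tissue for subunit 5B, came after muscle and heart here. After scaling muscle led by more, with 1228 against 398 in heart, liver followed at 330 and spleen lowest at 56.1.

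ADP/ATP translocase 2, which passes ATP out of the matrix, was the most abundant member in every library. Its FPKM was 3886 in heart, 2781 in eye, 2698 in stomach, 2222 in gut, 1803 in gill, 1766 in muscle, 1677 in kidney, 1341 in liver, 1175 in nose, 1014 in spleen, 890 in head kidney, 850 in brain and 777 in testis. Heart was 1.40 times eye (1.39 to 1.41) and 5.005 times testis (4.93 to 5.08). After median-of-ratios scaling stomach at 5485, muscle at 5267 and liver at 5234 were all above heart at 4028, and spleen at 519, testis at 535 and brain at 566 were lowest. Under upper-quartile scaling heart stayed highest, with stomach close to it. The Creatine kinase S-type row, for the enzyme that stores energy as phosphocreatine in muscle, was not paired and has no values here.

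**Figure D3:**
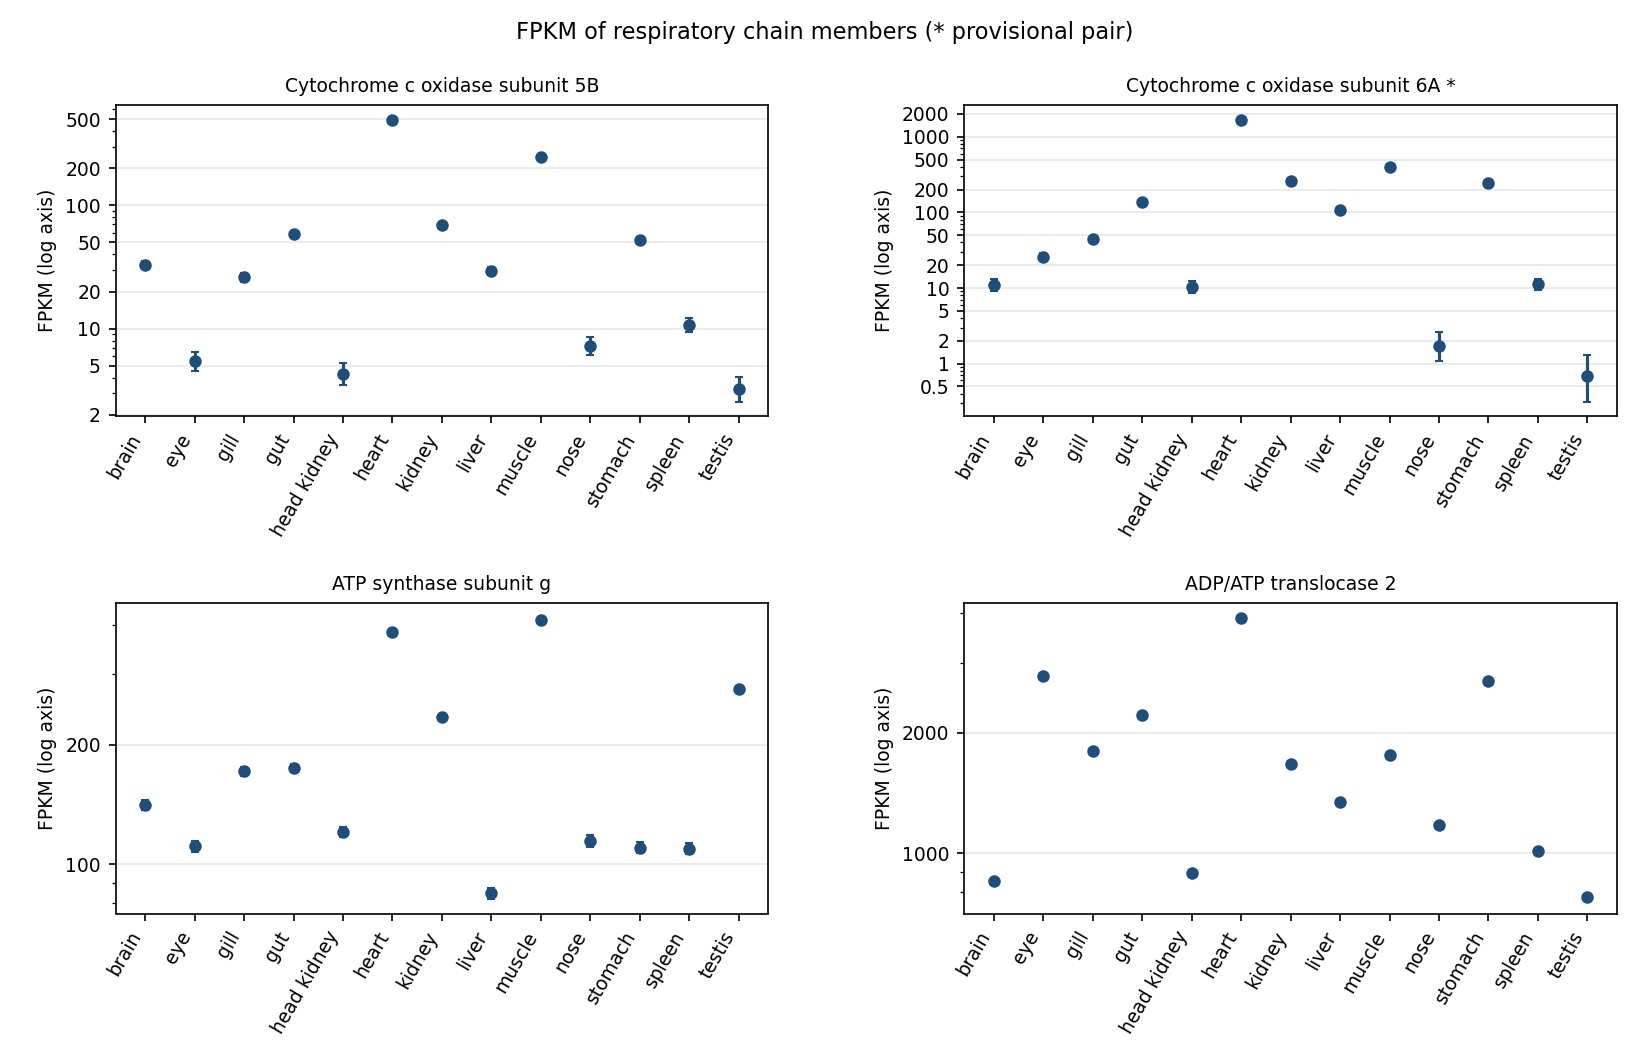
FPKM (vertical axis, log scale) in each of the 13 tissues (horizontal axis, 1 library each) for cytochrome c oxidase subunits 5B and 6A, ATP synthase subunit g and ADP/ATP translocase 2, with exact Poisson 95% intervals as bars, many smaller than the points. Subunit 5B spans 3.25 to 490.9 FPKM and ATP synthase subunit g 84.5 to 412, and the asterisk marks the provisional pair.

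Ratios between members of 1 library do not depend on how libraries are scaled. By this measure the transcripts paired with cytochrome c oxidase subunit 5B and ATP synthase subunit g did not keep a fixed proportion. Other copies of either subunit were not measured, so that the proportion of their total mRNA was not tested. The FPKM of cytochrome c oxidase subunit 5B over that of ATP synthase subunit g was 1.28 in heart (1.25 to 1.31), 0.594 in muscle (0.575 to 0.614), 0.480 in stomach, 0.346 in liver, 0.337 in gut, 0.297 in kidney, 0.234 in brain, 0.152 in gill, 0.0986 in spleen, 0.0632 in nose, 0.0490 in eye, 0.0357 in head kidney and 0.0118 in testis (0.00925 to 0.0148). The highest ratio was 108 times the lowest. Heart lay above muscle in this ratio, whichever scale is used for the libraries. The height of such a ratio rests on the lengths of both transcripts, but its order over tissues does not. ATP synthase subunit g was paired by profile only, and not under the stricter rule of pairing. Subunit 5B and ADP/ATP translocase 2 were both paired by equal fragments. Their ratio, 5B over translocase, ran 70.8-fold, from 0.00196 in eye to 0.139 in muscle, with heart at 0.126, below muscle.

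For ADP/ATP translocase 2 over ATP synthase subunit g the ratio was 25.03 in eye, 24.5 in stomach, 15.9 in liver, 12.7 in gut, 10.5 in gill, 10.3 in nose, 10.1 in heart, 9.25 in spleen, 7.38 in head kidney, 7.16 in kidney, 6.04 in brain, 4.29 in muscle and 2.82 in testis. Its highest and lowest values differed 8.88-fold, against 108-fold for subunit 5B. Muscle and testis, which rank apart for subunit 5B, both had a low ratio of translocase 2 to ATP synthase subunit g. Other copies of the translocase were not measured, so that its total was not tested. Over the 13 tissues, Pearson's r of log2(FPKM + 1) was 0.63 between subunit 5B and the translocase, 0.60 between subunit 5B and ATP synthase subunit g, and 0.25 between the translocase and ATP synthase subunit g. After scaling these were 0.80, 0.85 and 0.76. The tissues share 1 fish, and the FPKM of a library share its total, so that r is given as a description.

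**Figure D4:**
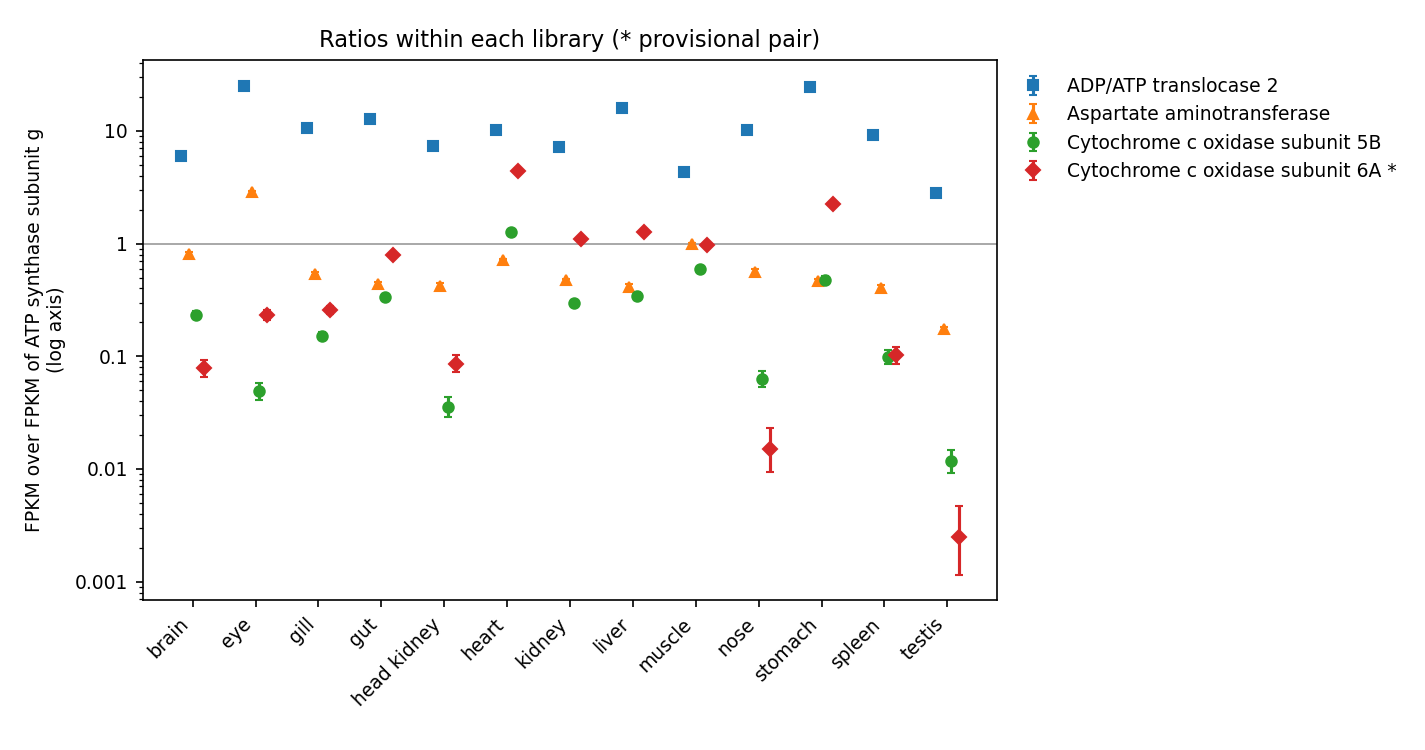
FPKM of 4 members divided by the FPKM of ATP synthase subunit g in the same library (vertical axis, log scale), by tissue (horizontal axis), with exact 95% intervals of counting error as bars. Cytochrome c oxidase subunit 5B runs from 0.0118 in testis to 1.28 in heart, while ADP/ATP translocase 2 stays between 2.82 and 25.03, and the asterisk marks the provisional pair.

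The mitochondrial aspartate aminotransferase, which takes part in the shuttle that brings the electrons of cytosolic NADH into the matrix, was highest in muscle, eye and heart. Its FPKM was 408 in muscle, 318 in eye, 275 in heart, 114 in brain, 110.5 in kidney, 93.0 in gill, 76.1 in gut, 64.8 in nose, 50.90 in stomach, 50.88 in head kidney, 48.5 in testis, 44.3 in spleen and 35.1 in liver. Muscle was 1.28 times eye (1.26 to 1.31), and heart, the lowest of these, was 2.42 times brain (2.34 to 2.50), the next in order. After scaling muscle led at 1217, and eye at 316 and heart at 285 kept their order. Eye, where subunit 5B was near its lowest, had the highest ratio of this enzyme to ATP synthase subunit g at 2.86 (2.77 to 2.96), and testis the lowest at 0.176 (0.168 to 0.184).

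Isocitrate dehydrogenase subunit gamma 1, a regulatory subunit of a citric acid cycle enzyme, ranged from 7.08 FPKM in liver to 50.3 in brain, with 46.4 in testis, 31.8 in heart and 18.6 in muscle. Brain was 1.08 times testis (1.03 to 1.15). After scaling muscle was highest at 55.5 and brain next at 33.5. Relative to ATP synthase subunit g, which no scaling changes, it was highest in brain at 0.357 and lowest in muscle at 0.0452.

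The flavoprotein subunit of succinate dehydrogenase, the part of complex II that oxidizes succinate in the citric acid cycle, was named for 2 short transcripts of 337 and 439 bases. Both were highest in testis and next highest in brain. The shorter one had 121 fragments in testis (18.7 FPKM), 35 in brain (6.02 FPKM), 19 in heart (2.96 FPKM), 13 in eye (1.92 FPKM), 8 in spleen, 8 in kidney, 3 in head kidney, 2 in gut, 2 in stomach, 1 in gill, 1 in muscle, 1 in nose and 0 in liver. The longer one had 85 in testis (10.1 FPKM), 28 in brain (3.70 FPKM), 18 in heart (2.15 FPKM), 14 in eye (1.58 FPKM), 7 in spleen, 3 in kidney, 2 in gill, 2 in nose, 1 in gut, 1 in head kidney and 0 in liver, muscle and stomach. Testis was 3.11 times brain for the shorter (2.12 to 4.67) and 2.73 times for the longer (1.76 to 4.34). For the shorter, the exact 95% interval of the FPKM ratio of testis to liver starts at 37.6. With liver set to a floor of 3 fragments, the ratio was 46.9 in FPKM and 8.28 after scaling, and these are not lower limits. Testis, brain, heart and eye came in this order in both transcripts (r = 0.98 over 13 tissues), and the tissues with few fragments did not keep 1 order. Heart and eye did not differ beyond counting error, with ratios of 1.545 (0.724 to 3.404) for the shorter and 1.359 (0.639 to 2.953) for the longer. Nor did heart and brain for the longer, with a ratio of 0.582 (0.303 to 1.09). Whether they are pieces of 1 mRNA was not tested. Other or longer transcripts of this subunit were not measured, so that its total mRNA in testis, liver, muscle or any other tissue was not tested.

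Testis was also the highest tissue for Endonuclease G, a nuclease of the space between the mitochondrial membranes. Its FPKM was 27.6 in testis, 4.97 in gill, 4.46 in kidney, 2.99 in nose, 2.63 in eye, 2.53 in brain, 2.36 in gut, 2.29 in heart, 2.19 in head kidney, 2.11 in liver, 1.02 in muscle, 1.02 in spleen and 0.085 in stomach. Testis was 5.55 times gill (4.54 to 6.85), and the tissues other than testis and stomach lay between 1.02 and 4.97. The stomach library held 2 fragments, and testis was 325 times stomach with an interval of 89.7 to 2692. After scaling testis remained highest at 19.0, with liver next at 8.23. Testis held 631 of the 1282 fragments of Endonuclease G, which without testis would not reach the minimum of 1000 fragments.

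The methylase of coenzyme Q synthesis (2-methoxy-6-polyprenyl-1,4-benzoquinol methylase, COQ5) takes part in making the ubiquinone that carries electrons from complexes I and II. Its FPKM was 26.3 in testis, 7.50 in kidney, 6.06 in nose, 5.82 in eye, 5.78 in heart, 5.43 in gill, 4.75 in brain, 4.51 in head kidney, 4.19 in spleen, 2.21 in gut, 1.80 in muscle, 1.71 in liver and 1.68 in stomach. Testis was 3.51 times kidney (3.003 to 4.11) and stood above all other tissues, while gut, muscle, liver and stomach were between 0.329 and 0.433 times the median of the others in FPKM. After scaling testis was 18.1 and liver next at 6.67.

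Endonuclease G, COQ5 and both succinate dehydrogenase transcripts were the 4 of 16 members whose FPKM lay more than 3 SD above their mean over the 13 tissues, with scores of 3.27, 3.18, 3.15 and 3.06, all in testis. Over all 38696 transcripts, 7.19% were past this threshold in testis, and with 13 tissues a score cannot exceed 3.33. The 7.19% is the share for testis alone, and the share past it in any tissue was not counted here in FPKM. By the study's own counts for the 13 tissues, that share was larger than 4 of 16. Without the testis library 0 of the 16 members were past 3 SD in any tissue. All 4 calls were in testis and had to go with it, so that this shows only that no other tissue gained a call. The highest possible score is also lower with fewer tissues. After median-of-ratios scaling 6 of 16 were past it in some tissue, where 37.4% of all transcripts were. Of these 6, 3 were in testis (Endonuclease G, COQ5 and the shorter succinate dehydrogenase transcript), aspartate aminotransferase and ATP synthase subunit g were in muscle and GrpE protein homolog 1 in liver. The share of all transcripts past it in each of these tissues was not counted after scaling. On log2(FPKM + 1) 0 of 16 were past it, and the share of all transcripts was not counted on that scale.

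GrpE protein homolog 1, the exchange factor of the mitochondrial Hsp70 that pulls proteins into the matrix, was also highest in testis in FPKM. Its FPKM was 75.5 in testis, 64.5 in kidney, 46.5 in gill, 42.6 in heart, 41.1 in liver and 14.1 in stomach, the lowest. Testis was 1.17 times kidney (1.08 to 1.27). After scaling liver was highest at 160 and testis next at 52.1, so that no single tissue led on both scales.

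In FPKM kidney was the next tissue after testis for COQ5 and GrpE protein homolog 1. The next was gill for Endonuclease G and brain for both succinate dehydrogenase transcripts. Cyclin-B2, which marks dividing cells, was also found in kidney, with 78.5 FPKM against 1651 in testis, or 4.76%. The kidney FPKM was 16.2% of the testis value for Endonuclease G, 28.5% for COQ5, 85.4% for GrpE protein homolog 1, and 6.42% and 3.43% for the 2 succinate dehydrogenase transcripts. Testis RNA in the kidney library was not tested.

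**Figure D5:**
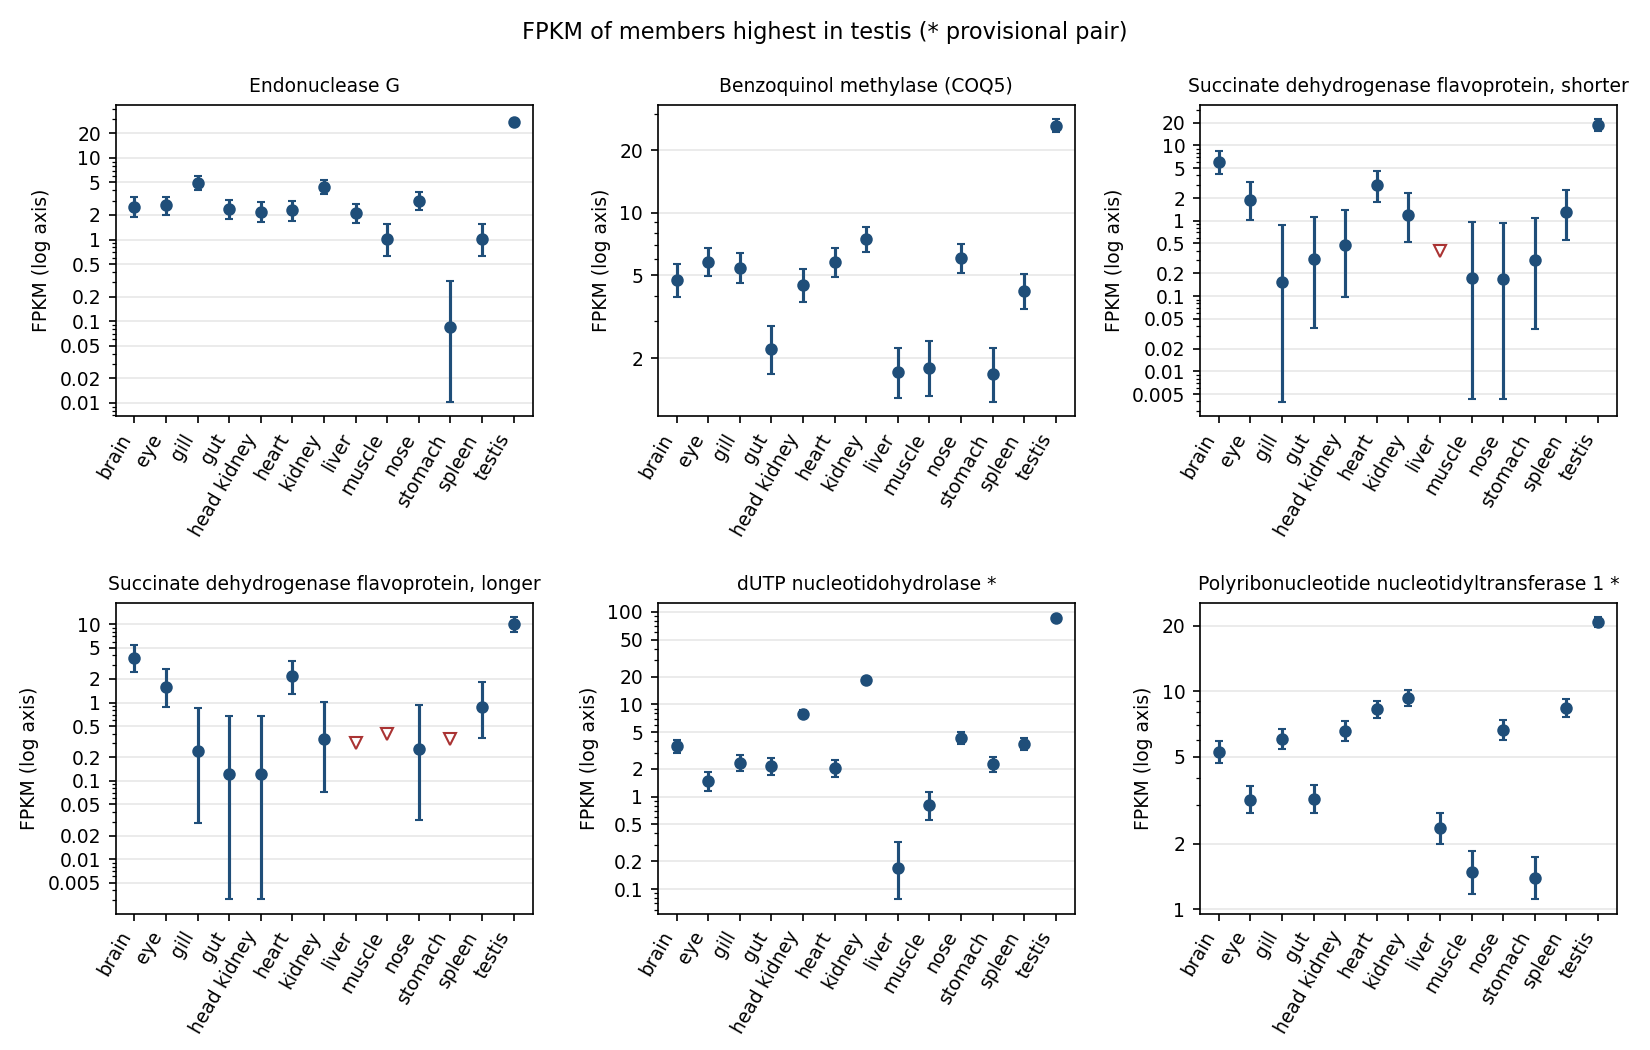
FPKM (vertical axis, log scale) in the 13 tissues (horizontal axis, 1 library each) for 6 members highest in testis, with exact Poisson 95% intervals as bars and, where no fragment was counted, an open triangle at the value of 3 fragments. Endonuclease G has 27.6 FPKM in testis and at most 4.97 elsewhere, and asterisks mark provisional pairs.

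Proteins of mitochondrial translation showed separate patterns. The 28S ribosomal protein S28, a part of the small mitochondrial ribosomal subunit, had 92.4 FPKM in heart, 59.3 in testis, 35.3 in muscle, 33.6 in kidney, 30.8 in gut, between 23.1 and 23.6 in brain, spleen, gill and head kidney, 16.2 in stomach, 15.8 in liver, 12.4 in nose and 12.2 in eye. Heart was 1.56 times testis (1.45 to 1.68). After scaling muscle was highest at 105 and heart next at 95.7. GTPase Era, known in mammals as a chaperone of the ribosomal RNA of that subunit, had 18.5 FPKM in kidney, 13.5 in head kidney, 12.2 in spleen and 2.14 in stomach, the lowest, and kidney was 1.37 times head kidney (1.25 to 1.51). After scaling liver was highest at 18.7, muscle next at 12.5 and testis lowest at 3.85.

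The coiled-coil-helix-coiled-coil-helix domain-containing protein 2, a protein of the space between the membranes that in mammals also acts on complex IV genes, was highest in liver on both scales. Its FPKM was 215 in liver, 198 in testis, 188 in eye, 173 in kidney, 172 in gut, 171 in muscle, 140 in heart, 132 in gill, 75.3 in head kidney and 71.2 in brain, with nose at 59.95, stomach at 55.7 and spleen at 47.4. Liver was 1.09 times testis (1.05 to 1.13). After scaling liver at 841 and muscle at 510 stood clear of the rest, and spleen stayed lowest at 24.3.

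The ES1 protein homolog, known in zebrafish from the mitochondria of cone photoreceptors, was highest in gill and not in eye. Its FPKM was 108 in gill, 45.5 in kidney, 34.3 in nose, 23.3 in gut, 15.1 in stomach, 13.8 in eye, 9.70 in head kidney, 6.31 in muscle, 3.13 in heart, 3.04 in spleen, 2.10 in brain, 1.02 in liver and 0.118 in testis. Gill was 2.37 times kidney (2.21 to 2.54). Testis held 3 fragments, and gill was 911 times testis with an interval of 311 to 4419. Gill remained highest after scaling at 77.8, with stomach next at 30.6. This pair lies at the edge of the rule, with a distance of 0.030 between the profiles of row and transcript and 0.112 to the next transcript.

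Glycerol-3-phosphate dehydrogenase, which feeds electrons from glycerol phosphate into the chain, had 5 fragments in all, 2 in eye, 2 in spleen and 1 in brain, and its order over tissues is not detectable at this depth.

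The 5 provisional pairs would add a further subunit of complex IV and 1 of complex I, if the pairing is right. The transcript paired with cytochrome c oxidase subunit 6A had 1688 FPKM in heart, 402 in muscle, 259 in kidney, 248 in stomach, 138 in gut, 106 in liver, 44.2 in gill, 25.9 in eye, 11.2 in spleen, 11.1 in brain, 10.4 in head kidney, 1.73 in nose and 0.684 in testis. Heart was 4.20 times muscle (4.07 to 4.33). Unlike subunit 5B, the 6A transcript remained highest in heart after median-of-ratios scaling, with 1749 against 1199 in muscle. Under upper-quartile scaling both were highest in heart. Testis held 9 fragments against 22040 in heart, a ratio of 2467 (1300 to 5397). Its profile was close to that of subunit 5B, with r = 0.90, and 0.94 after scaling, yet the FPKM of 6A over that of 5B ran from 0.210 in testis to 4.77 in eye. The distance to the row's profile was 0.0484, with 0.163 to the next transcript.

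The transcript paired with the 75 kDa subunit of complex I, the subunit that takes part in the first electron steps from NADH, had 57.9 FPKM in heart, 44.4 in eye, 40.6 in muscle, 38.3 in kidney and 37.9 in gill, and was lowest in stomach at 8.32. Heart was 1.30 times eye (1.24 to 1.37), and after scaling muscle was highest at 121 and heart next at 59.95. Acyl-coenzyme A synthetase ACSM3, which activates medium-chain fatty acids, had 6.11 FPKM in heart, 5.78 in spleen and 0.033 in testis, from 2 fragments, and heart and spleen did not differ beyond counting error, with a ratio of 1.06 (0.909 to 1.23). Deoxyuridine 5-triphosphate nucleotidohydrolase, which keeps uracil out of DNA, had 86.2 FPKM in testis, 18.4 in kidney, 7.84 in head kidney, between 0.803 and 4.36 in 9 other tissues and 0.169 in liver. Testis was 4.68 times kidney (4.34 to 5.04), and its kidney value was 21.4% of that in testis. Polyribonucleotide nucleotidyltransferase 1, an enzyme of mitochondrial RNA decay, had 20.8 FPKM in testis, 9.33 in kidney and 1.39 in stomach, and testis was 2.23 times kidney (2.01 to 2.47). The last of these 5 was taken in by a limit chosen after its distances were seen.

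The members without values are NADH dehydrogenase 1 alpha subcomplex subunit 2 of complex I, ATP synthase subunit d and coupling factor 6, both rows of the electron transfer flavoprotein system that brings in electrons from fatty acids, the mitochondrial ribosomal proteins S18a, S35 and L41, 3 other proteins of translation or tRNA modification and 2 nucleotide kinases. Among enzymes they hold methylmalonyl-CoA mutase, sulfite oxidase, carbamoyl-phosphate synthase, 3-hydroxyisobutyrate dehydrogenase, pyruvate dehydrogenase kinase isozyme 2, D-lactate dehydrogenase, D-beta-hydroxybutyrate dehydrogenase and 2 rows of trans-2-enoyl-CoA reductase. The others are glutaredoxin-related protein 5, steroidogenic acute regulatory protein, vitamin D-1 alpha hydroxylase, ATP-binding cassette member 6, COQ10 homolog A, protein F13E9.13 and the creatine kinase. By role, paired members with at least 1000 fragments were 2 of 3 rows for complex IV with its associated protein, 1 of 3 for ATP synthase, 1 of 2 for translocase and creatine kinase, 3 of 14 for enzymes of matrix and membrane, 2 of 9 for translation and RNA, and 4 of 10 for import, folding and other functions. Complex I, complex II and the electron transfer flavoprotein had 0 of 2 rows each, and nucleotide enzymes 0 of 3. No member of complex III was among the rows.

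Lists outside the mitochondrial members were paired too rarely for a comparison of groups. Of 3 rows of glycolysis 1 was paired, of 4 other rows of oxidative phosphorylation 3, and of 17 other rows with mitochondrial names 0. Fructose-bisphosphate aldolase A, a glycolytic enzyme, had 2382 FPKM in heart, 2378 in brain, 1586 in eye, 153 in testis, 129 in muscle and 71.8 in liver. Muscle was thus near the lowest for this 1 transcript, where subunit 5B, ATP synthase subunit g and aspartate aminotransferase were near their highest. After scaling the aldolase transcript had 386 in muscle and 2469 in heart. Other copies of aldolase were not measured, so that the total of aldolase or of glycolysis in muscle was not tested. The 3 others, 2 subunits of the V-type proton ATPase and inorganic pyrophosphatase, were raised in testis (beside 41.1% of all transcripts) and lowered in muscle (72.5%) and stomach (56.6%) in 3 of 3 cases in FPKM, and in 2, 1 and 2 of 3 after scaling. Testis was not the highest tissue for any of them. Subunit S1 had 85.5 FPKM in brain and 2.74 in testis, with 0 fragments in muscle and stomach. Pyrophosphatase had 247 in head kidney and 109 in testis, and subunit a isoform 1 had 31.8 in eye and 29.8 in testis.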

How the data were processed

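The authors trimmed paired-end Illumina reads, assembled all tissues together with Trinity, kept a reference of 38696 transcripts and mapped each of the 13 libraries to it. They deposited, per transcript and library, a raw count of fragments and an FPKM value relative to the mapped total. Which program mapped and counted the reads was not found in the labels or methods. Transcript lengths were calculated from count, FPKM and total.

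Names came from the supplementary tables of transcripts and of gene models, of which the first 1999 rows were at hand. Rows of transcripts were paired by fragments and FPKM and gene models by fragments and, for equal fragments, length, and no value of these tables is printed. The profile rule took the transcript nearest in Hellinger distance of the 13 shares of fragments, at most 0.03 away, with the next at least 0.06 and 3 times as far, and at least 1000 fragments. Of 1005 named gene models with at least 1000 fragments, 94 were paired by equal fragments within 1 fragment or 0.1% and lengths within 20%, and 143 by profile. Of the 94, 56 would also pass the profile rule. The looser limits were 0.05, 0.06 and 2 times, and 0.05, 0.05 and 2 times for 1 pair.

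Raised and lowered mean at least 2 and at most 0.5 times the median of the other 12 tissues, and transcripts at 0 on both sides were not called. The SD has n - 1 in its denominator. Intervals are exact Poisson, or exact binomial for ratios, and reads carry no molecular identifiers. The rule for named genes was every member with a deposited transcript, with all tissues for respiratory chain members and for any past 3 SD or with a range of 20 or more. Members and lists were chosen with earlier results of these data known, and ratios within a library, upper-quartile scaling and the background of 5000 fragments were added after the values were seen. The calls and the pairing were run on simulated data with known answers. For the pairing, the rows were copies of transcripts or evenly thinned copies. Rows that cover only a part of a transcript, or that belong to another gene copy, were not simulated, so that wrong pairs of this kind were not tested. Versions were scipy 1.17.1, pandas 2.3.3 and numpy 2.4.6 under Python 3.11.15, with plots by matplotlib 3.10.9. Sequences and genome coordinates of these transcripts were not used here.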

Additional observations from a re-analysis of the deposited data

How the results depend on the processing

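Median-of-ratios scaling gave 8 members raised in muscle and 3 in testis, 1 lowered in liver, 0 in muscle and 1 in stomach, and 1 highest in heart. Upper-quartile scaling, chosen after seeing the data, gave 6, 2, 2, 0, 2 and 4 for these in the same order. The shares of all transcripts beside them were 14.8%, 25.1%, 49.2%, 40.1%, 31.1% and 6.43%. Highest in heart were thus 3 members in FPKM, 1 after median-of-ratios scaling and 4 after upper-quartile scaling. A change of pairing leaves the shares over all transcripts as they are. For the other settings below those shares are not given, so that the counts only show how the calls move. The number of members with at least 1000 fragments also changes with the pairing, from 13 to 9 (stricter), 8 (same fragments only), 17 (looser) and 18 (with the provisional pairs). Stricter pairing gave 3 raised in heart, 3 raised in testis and 3 lowered in liver, and same fragments only gave 2, 3 and 2, with 1 raised in muscle. Looser pairing gave 8 raised in heart and 6 highest in heart. With the 5 provisional pairs, 8 were raised in heart, 8 lowered in liver, 6 highest in heart and 5 highest in testis. A 3-fold threshold gave 3 raised in heart and 2 in testis, and 3, 1 and 3 lowered in liver, muscle and stomach. At least 3000 fragments gave 3 raised in testis, the mean of the other tissues 9 lowered in liver, and TPM 10 lowered in stomach. Members past 3 SD were 0 on log2(FPKM + 1) and 0 to 4 when each tissue was left out. The count was 0 only without testis, which held all 4 calls of the full set. The other counts stayed within 1.5 times of those reported, and members paired were 11 to 21 under the 4 other rules of pairing. When each tissue was left out of the pairing, 10 to 12 of the 13 pairs of gene models were found again and 0 went to another transcript. No paired analysis was possible because each tissue has 1 library.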
